A study of Mus musculus with 12 samples.

Results

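The genes whose products store, dock, fuse and recycle synaptic vesicles were followed in cultured mouse cortical neurons that were left intact, scratched, or scratched and treated with transforming growth factor-β1 (TGF-β1). They were 46 genes chosen by symbol from synaptic vesicle proteins, SNAREs, the active zone, endocytosis and vesicular transporters, out of 55901 genes in the expression table. A mean of at least 0.5 FPKM (a read level scaled for gene length and library depth) over the libraries was reached by 45 of the 46, which were tested among 15016 genes. Rims1, which codes for an active zone scaffold, stayed below this level and is described by its values alone.

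Neurons came from the cortex of newborn C57BL/6J mice and were grown with arabinosylcytosine, which blocks dividing cells and limits glia, in all 3 groups. Each group held 4 poly(A) RNA libraries from cultures of day 8 to day 10. The Control group was neither scratched nor given TGF-β1. As the methods describe them, in the Trauma group the cell layer was scratched with a needle and left for 24 h, and in the Trauma+TGF-β1 group (labelled Tra_TGF) the scratch was followed by 24 h in medium holding TGF-β1 at 10 ng/mL. None of the 12 libraries had TGF-β1 without a scratch. The labels do not say whether libraries came from separate cultures or litters, so p-values measure the spread between these libraries, which may be technical.

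At a synapse, transmitter is pumped into vesicles by vesicular transporters, and the vesicles are held near the membrane by synapsins and tethered at the active zone by scaffolds such as bassoon, piccolo, RIM and ELKS. Fusion is driven by the SNAREs synaptobrevin (Vamp), syntaxin and SNAP-25, is primed by Munc13 and held ready by complexin, and is triggered when calcium binds synaptotagmin. Afterwards NSF and its SNAP adaptors take the SNARE complex apart, and dynamin, amphiphysin and synaptojanin bring the membrane back.

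Reads on genes numbered 15052486 to 17381671 in a library. The lowest number of reads for a member that passed a test was 136 in a library. The label of cortical neurons was checked with 10 neuronal markers, all of which had a mean of at least 1 FPKM. Their summed level was 2119 to 2240 FPKM in Control, 1870.4 to 2020 after the scratch alone and 1836 to 1925 with TGF-β1. The 7 astrocyte markers summed to 133 to 145, 178 to 220.2 and 201 to 219.8 FPKM, with 6 of 7 at 1 FPKM or more. The 9 microglial markers summed to 20.9 to 24.9, 31.4 to 40.1 and 25.4 to 29.4 FPKM, with 4 of 9 at 1 FPKM or more, and the endothelial list stayed under 1 FPKM. No marker was at 0 in all libraries. Of the Control libraries, Control 1 stood apart on the first principal component of all tested genes, at -13.1 against 25.2 to 30.1 for the others. On the second it stood at 59.0, against 4.21 to 9.03 for the other Control libraries and -21.5 to -2.25 for all scratched libraries. Its mitochondrial genes took 2.97% of reads, against 2.12% to 2.36% in the other Control libraries. In Trauma+TGF-β1 the mitochondrial share was 2.69% to 3.23%, and in Trauma 2.17% to 2.30%.

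Most of the release machinery was abundant. The median member stood at 39.1 FPKM, against 5.15 FPKM for all tested genes, 36 members reached a mean of 10 FPKM and 6 reached 100 FPKM. Synaptobrevin 2 (Vamp2), the main vesicle SNARE, led with 208, 205, 195 and 192 FPKM in the Control libraries, 186, 193, 195 and 196 after the scratch alone and 189, 197, 197 and 206 with TGF-β1. Synapsin 1 (Syn1) was the next, at 159.7 ± 5.82, 152 ± 4.67 and 154 ± 6.65 FPKM (mean ± SD, n = 4 each). The groups overlapped for both genes, and neither passed the test in any comparison.

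Syt11 was the most abundant synaptotagmin, at 123, 123, 115 and 112 FPKM in Control, 124, 127, 118 and 119.9 after the scratch alone and 129.7, 138, 128 and 129 with TGF-β1. The endocytic GTPase dynamin 1 (Dnm1) stood at 94.9, 100.4, 100.2 and 97.1 FPKM in Control, 89.1, 88.1, 94.03 and 89.1 after the scratch alone and 87.9, 90.3, 96.4 and 92.8 with TGF-β1. Of this pair Syt11 passed the test, in Trauma+TGF-β1 against Control, and Dnm1 passed in no comparison. The vesicular glutamate transporter VGLUT1 (Slc17a7) led its role with 61.6, 71.9, 68.1 and 62.6 FPKM in Control, 67.4, 66.5, 65.6 and 63.6 after the scratch alone and 60.5, 59.3, 56.05 and 57.7 with TGF-β1, every library with TGF-β1 lying below all others. Munc13-1 (Unc13a), the priming factor and most abundant active zone gene, stood at 38.6, 41.9, 47.8 and 45.6 FPKM in Control, 40.8, 39.8, 41.1 and 41.9 after the scratch alone and 39.1, 37.2, 40.9 and 36.7 with TGF-β1, with overlap between groups. Rabphilin (Rph3a) led the Rab3 genes at 44.1 ± 1.88 FPKM in Control (SD, n = 4). Close relatives were often far apart. Synaptobrevin 1 (Vamp1) stood at 2.08 ± 0.235 FPKM and Munc13-2 (Unc13b) at 1.44 ± 0.163 FPKM in Control. When the 46 genes were put in order of their Control mean, the libraries of 31 of the 45 neighbouring pairs overlapped, so the order within short stretches was not set beyond the spread.

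**Figure D1:**
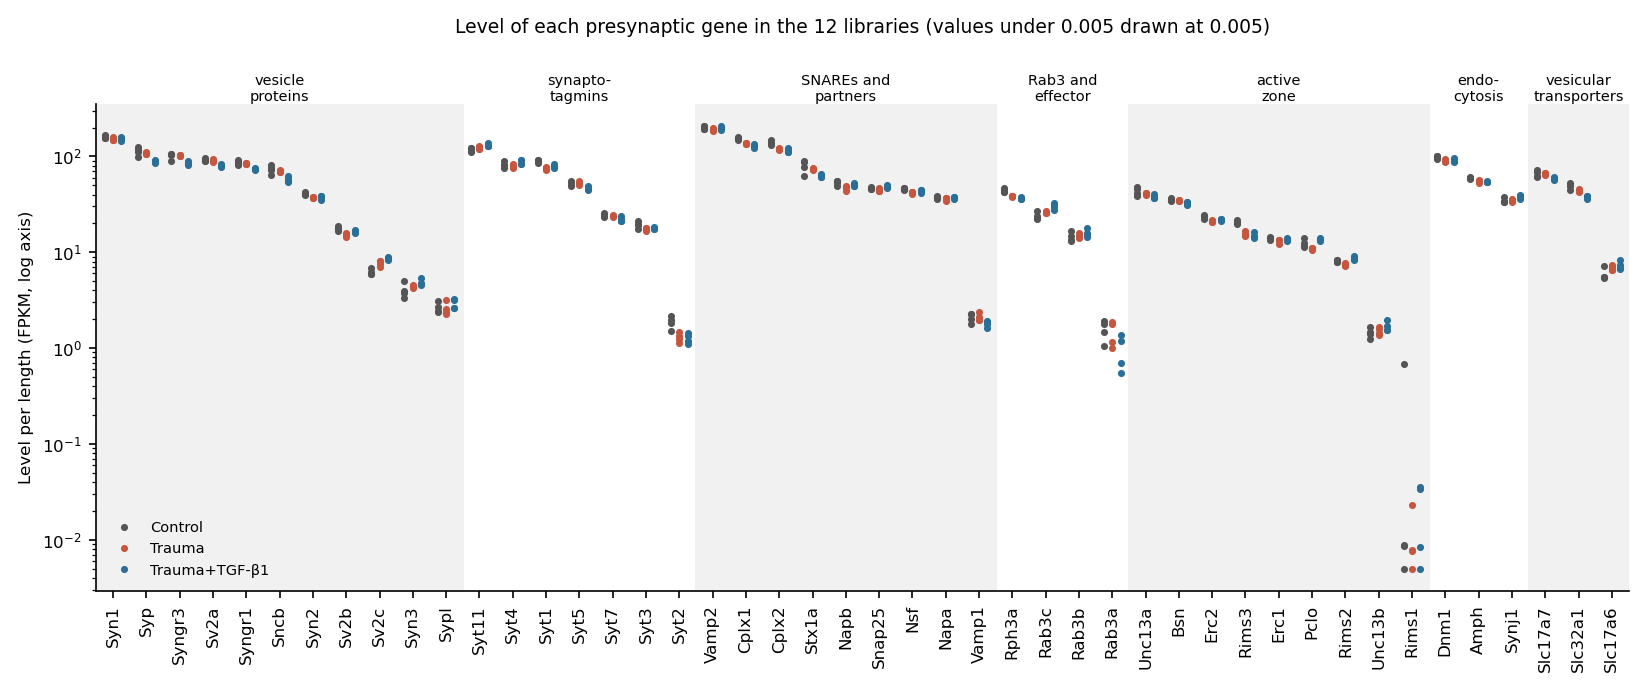
Level of each of the 46 genes (FPKM, log axis) in each library, grouped by role and ordered by mean within a role; grey, red and blue points are the 4 Control, 4 Trauma and 4 Trauma+TGF-β1 libraries, and values under 0.005 FPKM are drawn at 0.005. Vamp2 lies near 200 FPKM throughout, while Vamp1, Unc13b, Syt2 and Rab3a lie below 3 FPKM and Rims1 lies below 0.04 FPKM in every library but 1.

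Scratch injury was first compared with intact cultures. In Trauma against Control, 11 of the 45 tested members passed an adjusted p of 0.05 (limma, Benjamini-Hochberg over all 15016 genes), against 6.00% of all tested genes. Of these 10 fell, where 2.70% of all genes fell, and 1 rose, where 3.30% of all genes rose. Since members are abundant, the share was also read among genes with a mean of at least 10 FPKM: 10 of 36 members passed (27.8%), against 8.52% of such genes. Trauma and Control libraries did not overlap for 16 of 45 members (35.6%), against 12.9% of all genes. This share and those of falls and rises were not read among genes of at least 10 FPKM. The median log2 difference of the members was -0.06, and that of all tested genes was -0.01. In bulk RNA, fewer neurons and less RNA per neuron cannot be told apart. The sum of neuronal markers was lower and that of astrocyte markers higher in Trauma. Their most abundant genes were Tubb3 (means of 960 FPKM in Control and 842 in Trauma) and Gfap (47.7 and 87.3 FPKM). By their means Nefl and Nefm were higher in Trauma and the other neuronal markers lower. The sums of glutamatergic markers (129.5 to 137.4 FPKM in Control, 137.1 to 145.6 in Trauma) and GABAergic markers (156.7 to 173.2 and 183.5 to 207.5) were not lower. The part of these shifts in the result was not tested.

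The largest fall among the genes that passed was that of Rims3 (ENSMUSG00000032890, chr4:120854816-120896579, GRCm38), which codes for a short RIM protein of the active zone. It stood at 19.5, 20.5, 20.7 and 21.8 FPKM in Control and at 16.7, 15.6, 15.3 and 14.7 FPKM in Trauma, with 14.1, 14.6, 16.4 and 14.4 FPKM in Trauma+TGF-β1. Every injured library lay below every Control library. The log2 difference was -0.41 ± 0.06 (SE) for Trauma against Control (limma, adjusted p = 0.00155). Synaptotagmin 1 (Syt1, ENSMUSG00000035864, chr10:108497650-109010982), the calcium sensor of fast release, stood at 92.2, 90.2, 86.05 and 92.2 FPKM in Control and 78.3, 73.1, 75.96 and 71.7 FPKM in Trauma. It fell in all 4 Trauma libraries with no overlap, by a log2 difference of -0.27 ± 0.04 (limma, adjusted p = 0.00222).

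Both complexins, which clamp and then assist SNARE fusion, fell. Cplx1 stood at 149.7, 157, 156 and 159 FPKM in Control and 139, 138, 135 and 136 FPKM in Trauma, a log2 difference of -0.18 ± 0.03 (limma, adjusted p = 0.00999). Cplx2 stood at 130.2, 147, 138 and 139 FPKM in Control and 116, 118, 124 and 119 FPKM in Trauma, a log2 difference of -0.22 ± 0.04 (limma, adjusted p = 0.0132). For both genes the lowest Control library lay above the highest Trauma library. Rabphilin (Rph3a), which links Rab3 on the vesicle to the release machinery, stood at 42.3, 46.3, 45.04 and 42.8 FPKM in Control and 38.96, 38.2, 37.7 and 38.2 FPKM in Trauma, again without overlap, a log2 difference of -0.20 ± 0.03 (limma, adjusted p = 0.00488). Rims3, Syt1, Cplx1, Cplx2 and Rph3a passed the test under each of the 26 alternatives. These include the FPKM as deposited, which repeats the main fit. Leaving out a Trauma+TGF-β1 library keeps these differences as they were and changes only the spread estimated over all groups.

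In the SV2 family of vesicle glycoproteins one gene fell and another rose. Sv2b fell from 18.8, 17.4, 16.5 and 17.8 FPKM in Control to 15.5, 15.03, 15.96 and 14.2 FPKM in Trauma, a log2 difference of -0.21 ± 0.05 (limma, adjusted p = 0.0255). Sv2c (chr13:95954594-96132577) stood at 6.84, 6.17, 5.92 and 5.87 FPKM in Control and rose to 7.03, 8.12, 8.02 and 7.54 FPKM in Trauma, a log2 difference of 0.30 ± 0.06 (limma, adjusted p = 0.0135). It was the only member that rose, and the lowest Trauma library exceeded the highest Control library, which was Control 1. Of its span 2161 bases are shared with Gm20075, on the same strand at a mean of 3.73 FPKM. Sv2a, the most abundant of the family, stood at 91.2 ± 3.37 and 91.1 ± 2.42 FPKM (SD, n = 4 each) in Control and Trauma and did not pass the test.

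Among the proteins that take the SNARE complex apart, the ATPase gene Nsf (-0.13 ± 0.03) and the β-SNAP gene Napb (55.3, 54.7, 49.4 and 53.01 FPKM in Control, 48.7, 47.7, 46.3 and 43.5 in Trauma, -0.19 ± 0.05) fell, while the α-SNAP gene Napa had a log2 difference of -0.04 ± 0.03. The ELKS scaffold gene Erc2 fell by a log2 difference of -0.16 ± 0.04, and amphiphysin (Amph), an endocytic adaptor, by -0.11 ± 0.03. These calls and that of Sv2b did not hold when certain single libraries were left out. Erc2 and Napb lost the call when Control 1, 2 or 4 or Trauma 2, 3 or 4 was left out (-0.19 to -0.14 and -0.22 to -0.16 on the log2 scale over the 12 omissions), Sv2b without Control 1 or 4 or Trauma 2 or 4 (-0.24 to -0.18), Nsf without any library other than Control 3 and Trauma+TGF-β1 3 (-0.14 to -0.11), and Amph without any of the 12 (-0.13 to -0.09). The number of members that passed fell from 11 to 6 without Trauma 2 or Trauma 4, and to 7 without Control 2, Control 4 or Trauma 3, while 10 passed without Control 1. Those 10 were 6 of the 11 (Cplx1, Cplx2, Rims3, Rph3a, Sv2c and Syt1) and 4 others: Syt2 (-0.58), Stx1a (-0.19) and the transporter genes Slc32a1 (-0.19) and Slc17a6 (0.31). The number was 16 (1 higher and 15 lower) after correction for GC content and also after correction for gene length, and 13 with voom on read counts. It was 7 under quantile normalization and with no filter on low values, 6 when libraries were scaled to their total reads on genes, and 5 when Trauma and Control were fitted alone, where Sv2c also lost its call. Over all genes 901 of 15016 passed in the main fit and 489 to 875 with 1 library left out. Their number was 1366 of 14699 after correction for GC content, 1081 for gene length and 1152 with voom. Under quantile normalization it was 736, with no filter 575 of 33142, and with Trauma and Control alone 518.

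SNAREs themselves did not pass: Vamp2 (-0.05 ± 0.04), Snap25 (-0.06 ± 0.04), Stx1a (-0.08 ± 0.09) and Vamp1 (0.02 ± 0.10). By role, 4 of 9 SNAREs and SNARE partners fell, 2 of 8 tested active zone genes fell, 1 of 7 synaptotagmins fell, 1 of 4 Rab3 and effector genes fell, 1 of 3 endocytic genes fell, 1 of 11 vesicle protein genes fell and 1 rose, and none of the 3 vesicular transporters passed with all libraries in the fit. Syt2, a synaptotagmin of fast synapses, had the largest log2 difference of all members, -0.49 ± 0.14, with 1.51, 1.82, 1.96 and 2.17 FPKM in Control and 1.12, 1.25, 1.34 and 1.48 FPKM in Trauma; the libraries did not overlap, but its adjusted p of 0.0592 (limma) missed the threshold.

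**Figure D2:**
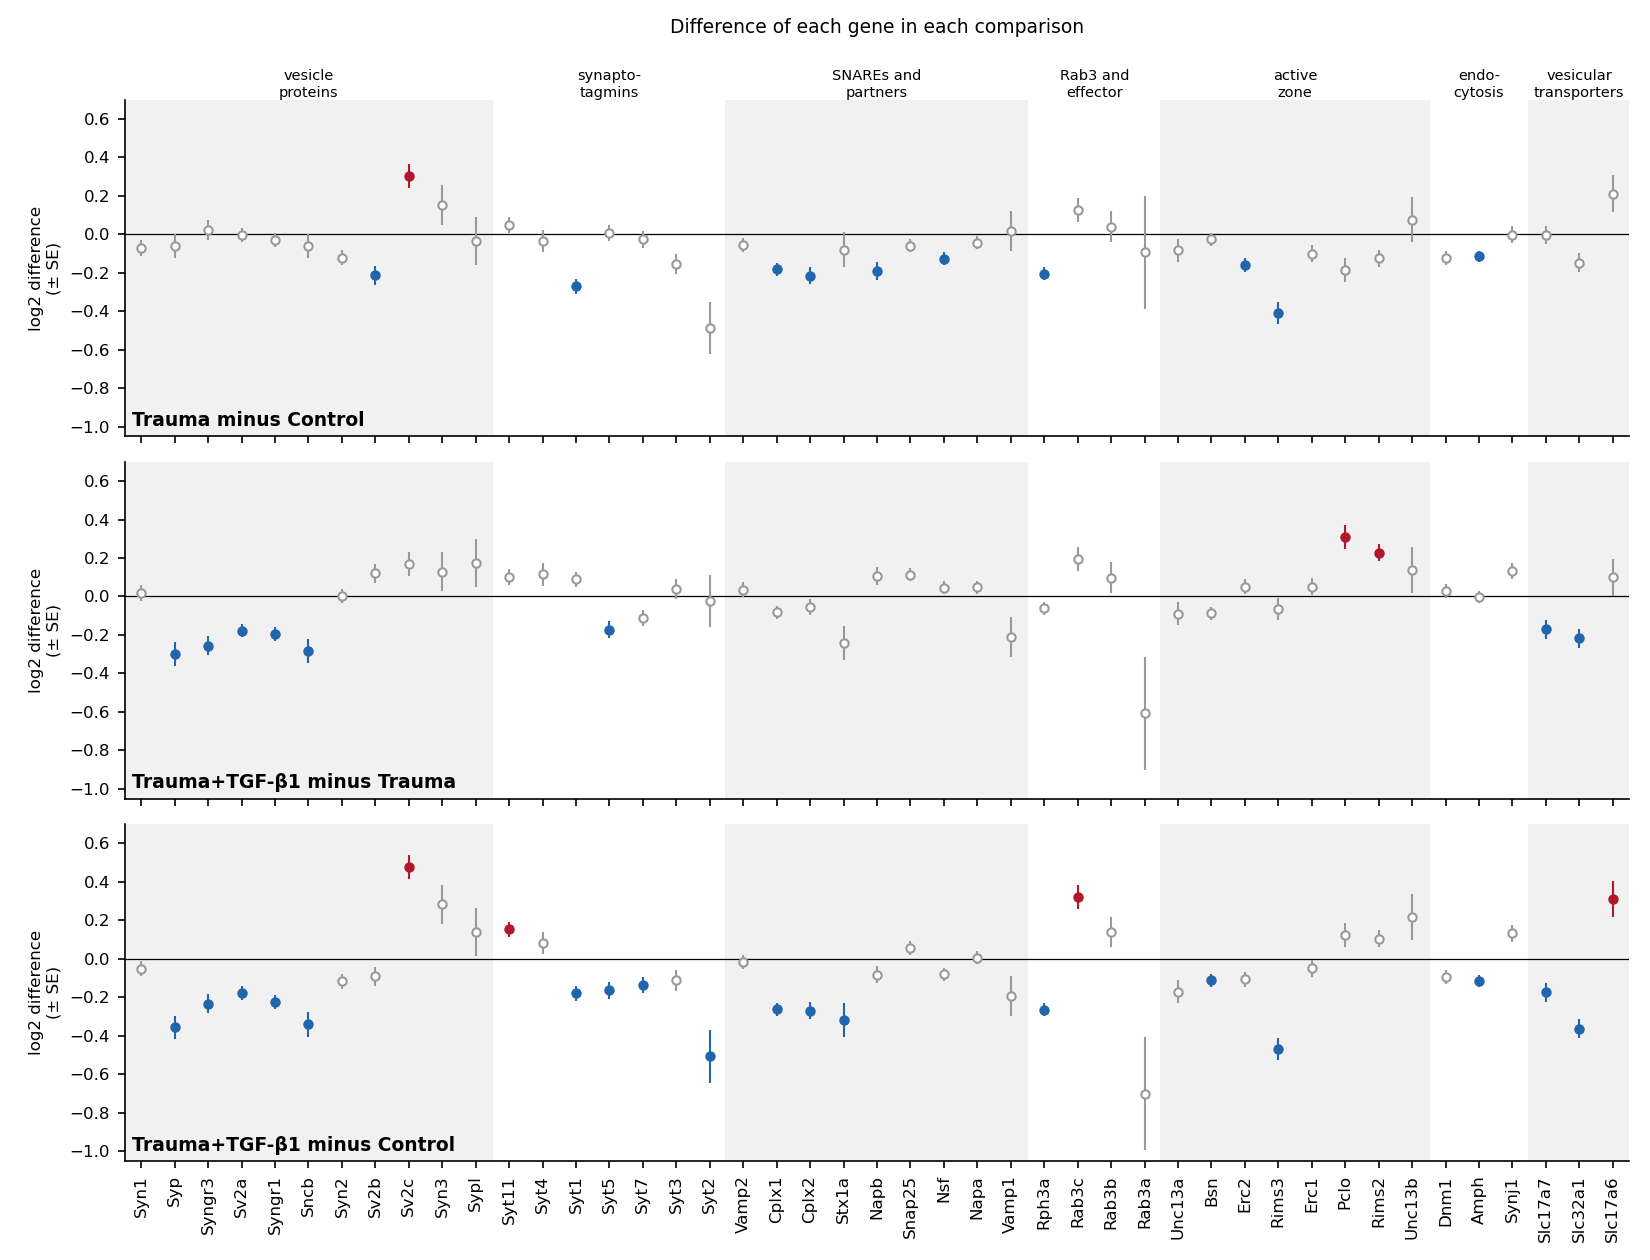
log2 difference of each of the 45 tested genes (± SE of the limma fit) in the 3 comparisons, grouped by role; filled red points rose and filled blue points fell in the test, and open points did not pass. In Trauma against Control the calls lie in several roles, in Trauma+TGF-β1 against Trauma they lie mainly among vesicle proteins and transporters, and the open point with the widest error is Rab3a.

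To show the sequence in front of genes that fell together after the scratch, the 250 bases before the transcription start were taken from RefSeq (GRCm38.p6), which held an entry for 38 of the 46 members. Syn3, Syngr3, Syt4, Syt5, Syt7, Snap25, Vamp2 and Rims2 had no entry. Shown are the members that passed under each alternative and whose RefSeq start lay within 200 bases of the 5′ end of the gene in the table; the Cplx2 start lay farther away. Capitals mark the SP1 motif GGGCGG or its reverse complement CCGCCC. In Rph3a they mark TGANTCA, the loose pattern searched for AP-1, in which N is any base. Rims3 lay at chr4:120854549-120854798 on the plus strand, and Syt1 at chr10:109010976-109011225, Cplx1 at chr5:108550028-108550277 and Rph3a at chr5:121010093-121010342 on the minus strand.
Rims3: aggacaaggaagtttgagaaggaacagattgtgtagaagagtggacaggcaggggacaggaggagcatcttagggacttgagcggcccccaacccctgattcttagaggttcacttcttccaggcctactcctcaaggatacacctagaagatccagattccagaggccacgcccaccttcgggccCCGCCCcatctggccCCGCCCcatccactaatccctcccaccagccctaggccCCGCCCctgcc
Syt1: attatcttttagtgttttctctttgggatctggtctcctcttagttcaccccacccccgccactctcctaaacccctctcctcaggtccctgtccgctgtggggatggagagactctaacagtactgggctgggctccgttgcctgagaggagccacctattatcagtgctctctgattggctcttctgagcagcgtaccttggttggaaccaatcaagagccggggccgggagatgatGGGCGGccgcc
Cplx1: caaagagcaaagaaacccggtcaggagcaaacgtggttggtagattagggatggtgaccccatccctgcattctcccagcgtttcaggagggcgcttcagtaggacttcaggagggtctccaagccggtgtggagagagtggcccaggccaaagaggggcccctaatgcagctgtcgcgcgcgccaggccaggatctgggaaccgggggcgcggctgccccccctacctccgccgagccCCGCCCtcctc
Rph3a: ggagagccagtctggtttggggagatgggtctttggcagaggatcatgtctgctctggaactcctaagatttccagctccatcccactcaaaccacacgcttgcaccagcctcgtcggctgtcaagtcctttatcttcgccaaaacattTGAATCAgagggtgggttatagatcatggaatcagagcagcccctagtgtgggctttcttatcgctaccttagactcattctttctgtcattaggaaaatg
The Rims3 window held 3 SP1 matches close to the start, Syt1 and Cplx1 held 1 each, and Rph3a held none. It had 1 match to the loose AP-1 pattern, with A in place of N.

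Over all members with an entry, the SP1 motif stood in 25 of 38 windows (65.8%), against 32.7% of the 32851 windows of that length in the table. The median GC content of the members' windows was 61.2%, against 52.4% over all windows. The EGR motif GCGNGGGCG (reverse complement CGCCCNCGC), which can overlap an SP1 motif, stood in 5 of 38 (13.2%) against 4.70%, the CRE motif TGACGTCA in 1 of 38 (Syn1, 2.63%) against 1.55%, AP-1 in 2 of 38 (Erc2 and Rph3a, 5.26%) against 6.75%, and the SMAD motif GTCTAGAC in 0 of 38 against 0.167%. Both strands were searched, and a match describes letters only.

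TGF-β1 in injured cultures was then compared with injury alone. In Trauma+TGF-β1 against Trauma, 10 of 45 members passed (limma, adjusted p of at most 0.05), against 12.1% of all tested genes. Of these 8 fell (all genes, 7.71%) and 2 rose (all genes, 4.40%). Among genes with a mean of at least 10 FPKM, 9 of 36 members passed (25%), against 24.1% of such genes. Both counts moved with the libraries in the fit: without Trauma+TGF-β1 2, 7 members and 651 of all genes passed, and without Control 1, 15 members and 2539 of all genes, in place of 10 and 1819. The libraries of both groups were apart for 19 of 45 members (42.2%), against 22.2% of all genes. This share and those of falls and rises were not read among genes of at least 10 FPKM. At that level the share of calls in either direction was about the same for members and for all genes (25% against 24.1%). An excess of members beyond their higher level is therefore not shown here. The median log2 difference was 0.03, and it became -0.01 when libraries were corrected for gene length. The comparison shares the Trauma libraries with the one before.

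The vesicle protein genes held 5 of the 8 falls. Synaptophysin (Syp, ENSMUSG00000031144, chrX:7638471-7653256), a major membrane protein of small synaptic vesicles, stood at 111, 109.6, 106 and 106 FPKM in Trauma and at 86.5, 84.7, 88.8 and 91.9 FPKM in Trauma+TGF-β1, with 97.8, 125, 118 and 112 FPKM in Control. Every Trauma+TGF-β1 library lay below every Trauma and every Control library. Its log2 difference was -0.30 ± 0.06 for Trauma+TGF-β1 against Trauma (limma, adjusted p = 0.0137), and it was the only member that passed this comparison under each of the 26 alternatives. Its 250 bases before the start, at chrX:7638330-7638579 on the plus strand, held 2 SP1 matches, shown in capitals.
Syp: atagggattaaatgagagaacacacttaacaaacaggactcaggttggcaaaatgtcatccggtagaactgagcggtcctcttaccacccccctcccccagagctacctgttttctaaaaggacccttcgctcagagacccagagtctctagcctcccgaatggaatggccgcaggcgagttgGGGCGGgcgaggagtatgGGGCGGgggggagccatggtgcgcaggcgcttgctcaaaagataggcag

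β-synuclein (Sncb), a vesicle-associated protein, stood at 68.3, 69.6, 71.4 and 70.7 FPKM in Trauma and 58.6, 54.6, 62.3 and 54.9 FPKM in Trauma+TGF-β1, a log2 difference of -0.28 ± 0.06 (limma, adjusted p = 0.0183). The synaptogyrins, membrane proteins of the vesicle related to synaptophysin, both fell. Syngr3 stood at 102, 104, 101 and 101 FPKM in Trauma and 85.4, 81.3, 90.1 and 85.9 FPKM in Trauma+TGF-β1, a log2 difference of -0.25 ± 0.05 (limma, adjusted p = 0.0130). Syngr1 stood at 85.5, 83.1, 85.1 and 83.9 FPKM and 75.3, 73.6, 73.6 and 72.3 FPKM, a log2 difference of -0.20 ± 0.04 (limma, adjusted p = 0.0116); 535 bases of its span are shared with the abundant ribosomal protein gene Rpl3 on the other strand, and the strand setting of the counting is not given in the sources used here. None of these genes overlapped between the 2 groups. Sv2a went from 93.7, 92.3, 88.3 and 90.001 FPKM to 83.01, 82.1, 77.8 and 79.4 FPKM, a log2 difference of -0.18 ± 0.04 (limma, adjusted p = 0.0132).

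The transporters that fill vesicles with GABA and with glutamate also fell. VGAT (Slc32a1) stood at 46.03, 42.8, 43.4 and 44.01 FPKM in Trauma and 35.98, 38.7, 37.8 and 39.04 FPKM in Trauma+TGF-β1, a log2 difference of -0.22 ± 0.05 (limma, adjusted p = 0.0185). Over the same libraries the 6 markers of GABAergic neurons summed to 183.5 to 207 FPKM in Trauma and 173 to 192 FPKM in Trauma+TGF-β1, and to 157 to 173.2 FPKM in Control. VGLUT1 (Slc17a7) stood at 65.8 ± 1.64 FPKM in Trauma and 58.4 ± 1.92 FPKM in Trauma+TGF-β1 (SD, n = 4 each), a log2 difference of -0.17 ± 0.05 (limma, adjusted p = 0.0394). The 5 markers of glutamatergic cortical neurons summed to 137.1 to 145.6 FPKM in Trauma and 125.6 to 139.3 FPKM in Trauma+TGF-β1. Syt5, a synaptotagmin of vesicles, fell by a log2 difference of -0.17 ± 0.04.

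Active zone scaffolds gave the 2 rises. Piccolo (Pclo, chr5:14514918-14863459), a giant scaffold with an exon length of 22457 bases, stood at 10.9, 10.9, 11.1 and 10.6 FPKM in Trauma and at 13.4, 14.1, 12.99 and 13.6 FPKM in Trauma+TGF-β1, a log2 difference of 0.31 ± 0.06 (limma, adjusted p = 0.0131). In Control it stood at 14.2, 11.4, 11.7 and 12.4 FPKM, with Control 1 highest, so that Trauma+TGF-β1 and Control overlapped. Rims2, which codes for a RIM that ties vesicles and calcium channels to the active zone, stood at 7.26, 7.67, 7.44 and 7.31 FPKM in Trauma and 8.51, 9.22, 8.28 and 8.80 FPKM in Trauma+TGF-β1, a log2 difference of 0.23 ± 0.04 (limma, adjusted p = 0.0124). Its Control libraries, at 8.31, 8.23, 7.99 and 7.85 FPKM, lay above all Trauma libraries; Control 1 lay within the range of the libraries with TGF-β1 and the other 3 below it.

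None of the 10 genes that fell after the scratch passed here. Under quantile normalization Syt1 (0.20), Nsf (0.12) and Napb (0.18) passed above Trauma. With TGF-β1 against Trauma, Rims3 had a log2 difference of -0.06 ± 0.06, Cplx1 -0.08 ± 0.03, Cplx2 -0.06 ± 0.04, Rph3a -0.06 ± 0.03, Syt1 0.09 ± 0.04 and Sv2b 0.12 ± 0.05. After correction for GC content the difference was above 0 for Rims3 (0.05), Cplx1 (0.04), Cplx2 (0.03) and Rph3a (0.06), none of which passed. By role, 5 of 11 vesicle protein genes, 1 of 7 synaptotagmins and 2 of 3 transporters fell, 2 of 8 active zone genes rose, and none of the 9 SNAREs and SNARE partners, 4 Rab3 and effector genes or 3 endocytic genes passed. Stx1a, the syntaxin of the plasma membrane, stood at 74.3, 75.95, 74.5 and 71.3 FPKM in Trauma and 64.1, 60.8, 65.5 and 60.4 FPKM in Trauma+TGF-β1 without overlap, but its log2 difference of -0.24 ± 0.09 did not pass (limma, adjusted p = 0.0959).

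**Figure D3:**
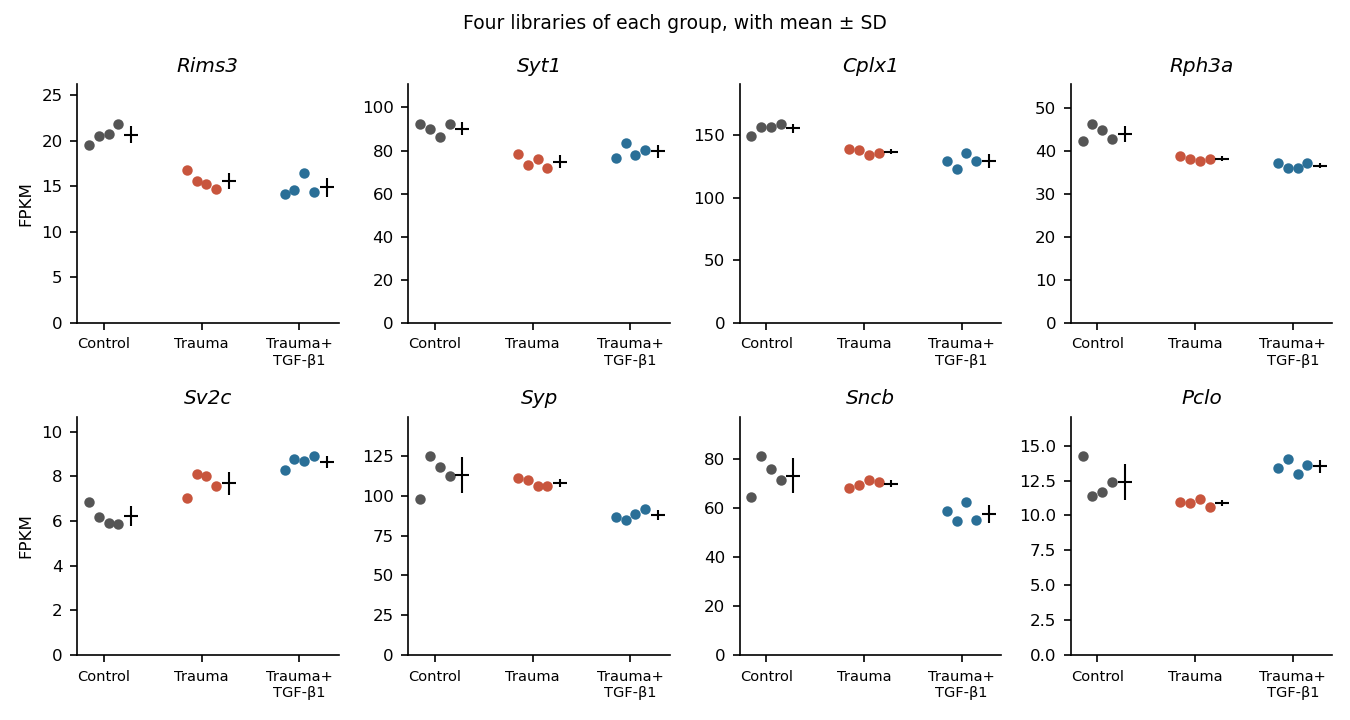
FPKM of 8 genes in each library (points, in order of replicate number) with the group mean ± SD (cross) beside them, axes from 0. Rims3, Syt1, Cplx1 and Rph3a are lower in both scratched groups than in Control, Sv2c is higher, Syp and Sncb are lowest with TGF-β1, and Pclo is lowest in Trauma.

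Base composition moved with the second comparison. Across the 45 members, the log2 difference of Trauma+TGF-β1 against Trauma went with the GC content of the exons at a Spearman rho of -0.71 and with exon length at 0.56; over 14699 tested genes with a known GC content the value for GC was -0.47. These are correlations across genes of the same libraries, and genes are not independent. GC content here and below is that of the longest GENCODE transcript of each gene. Which isoform these neurons use was not tested. The 8 members that fell had 45.4% to 61.9% GC with a median of 56.7%, and the 2 that rose had 45.4% and 48.9%. For Trauma against Control the values were -0.19 over members and 0.09 over all genes. After a loess correction of each library for GC content, 5 members passed in place of 10. Among all genes 813 of 14699 then passed, in place of 1819 of 15016. The 5 members were Syp (-0.37) and Syngr3 (-0.12) below Trauma, and Pclo (0.24), Rims2 (0.21) and Dnm1 (0.17) above it. Sncb then had a log2 difference of -0.06, Syngr1 -0.06, Sv2a -0.09, Slc17a7 -0.04, Syt5 -0.06 and Slc32a1 0.01, which turned the sign of Slc32a1. Under quantile normalization 16 passed, 12 of them above Trauma, and after correction for gene length with the replicate number as a block 5 passed, all below it. Over all genes these settings gave 2052 (1125 above Trauma) and 878 (270 above it). Rims2 lost its call after the correction for gene length alone (0.15), where Pclo kept it (0.16). Slc32a1 lost its call without Trauma 1 (-0.23 to -0.19 on the log2 scale over the 12 omissions), Sncb without Trauma+TGF-β1 2 or 4 (-0.32 to -0.26), Syt5 without Trauma 1, 2 or 4 or Trauma+TGF-β1 1 or 2 (-0.20 to -0.15), and Slc17a7 without any Trauma library or Trauma+TGF-β1 2, 3 or 4 (-0.19 to -0.15). The mitochondrial share of reads also differed between these groups, as given above, and its part in the result was not tested.

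**Figure D4:**
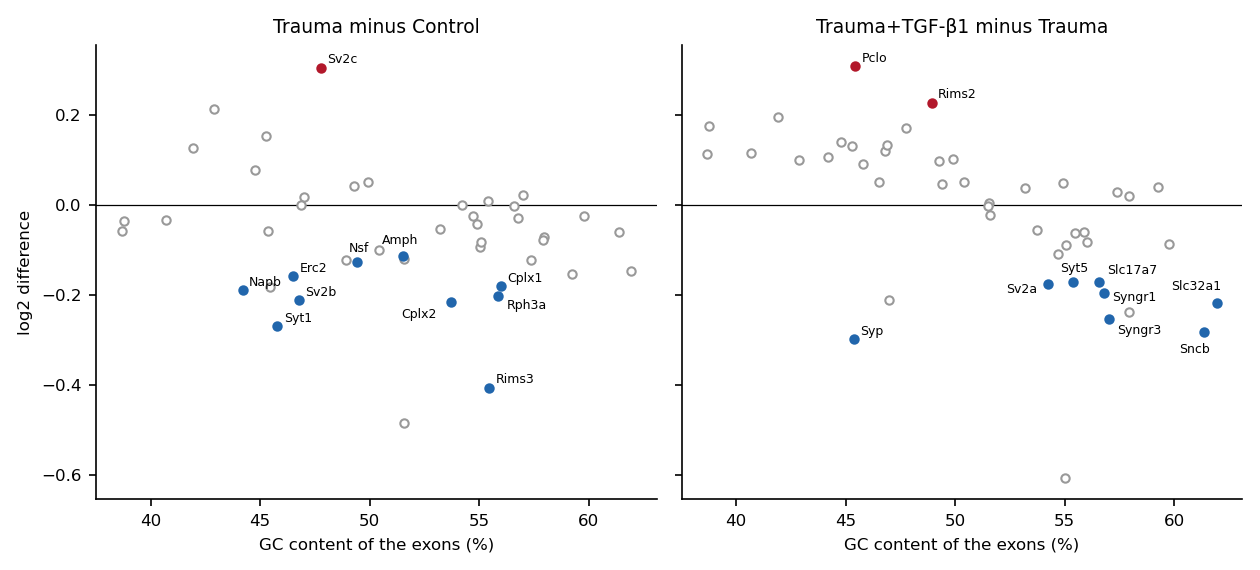
log2 difference of the 45 tested genes against the GC content of their exons (%, longest GENCODE transcript of each gene) for both single-step comparisons. Filled and named points passed the test (red rose, blue fell), open points did not. With TGF-β1 the named falls lie mostly above 54% GC, apart from Syp at 45.4%, while after the scratch alone they are spread from 44.2% to 56.0%.

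Scratched cultures with TGF-β1 were last compared with intact ones, which holds both steps together. In Trauma+TGF-β1 against Control, 22 of 45 members passed (limma, adjusted p of at most 0.05), against 16.6% of all tested genes. Of these 18 fell (40.0% of members, against 10.4% of all genes) and 4 rose (8.89% of members, against 6.14%). Among genes of at least 10 FPKM, 19 of 36 members passed (52.8%), against 29.5%. The libraries were apart for 19 of 45 (42.2%), against 18.5% of all tested genes. This share and those of falls and rises were not read among genes of at least 10 FPKM. The median log2 difference was -0.11 over the members and -0.01 over all tested genes; under quantile normalization it was -0.02 over the members and 0.00 over all genes, and after correction for gene length -0.16 over the members. This comparison shares its libraries with the other 2 and is no separate evidence for them. The lower sum of neuronal markers and the higher sum of astrocyte markers held here as well. Mean Tubb3 was 960 FPKM in Control and 739 with TGF-β1, and mean Gfap 47.7 and 97.1 FPKM. The means of Map2 (105.5 and 119.1 FPKM), Dcx (75.2 and 81.6), Nefl and Elavl4 were not lower, while those of the other neuronal markers were. The part of these shifts was not tested. Without Control 1, 26 members passed. Under quantile normalization 17 passed, 8 above and 9 below Control, with total-read scaling 18, 6 above and 12 below, and 14 passed when the 2 groups were fitted alone. After correction for gene length 27 passed, and 29 with the replicate number as a block as well. Over all genes 2487 passed in the main fit and 1488 to 3389 with 1 library left out. Under quantile normalization 2052 of all genes passed (1134 above Control), and 1601 with the 2 groups alone. After correction for gene length the number over all genes was 2592, and 2550 with the block as well. Across the 45 members the log2 difference went with the GC content of the exons at a Spearman rho of -0.61, against -0.36 over all tested genes with a known GC content, a description across genes of the same libraries. After correction for GC content Slc32a1 had a log2 difference of -0.16 and lost its call, Sncb stood at -0.15 and Stx1a at -0.22, while Syp stood at -0.44, Rims3 at -0.42 and Syt2 at -0.52.

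Each of the 7 roles held at least 1 gene that fell. Of 11 vesicle protein genes 5 fell and 1 rose, of 7 synaptotagmins 4 fell and 1 rose, of 9 SNAREs and partners 3 fell, of 8 active zone genes 2 fell, of 4 Rab3 and effector genes 1 fell and 1 rose, of 3 endocytic genes 1 fell, and of the 3 transporters 2 fell and 1 rose. The largest falls among those that passed were Syt2 (-0.51 ± 0.14; 1.19, 1.45, 1.35 and 1.11 FPKM), Rims3 (-0.47 ± 0.06), Slc32a1 (-0.36 ± 0.05; 44.3, 52.5, 49.9 and 48.8 FPKM in Control), Syp (-0.36 ± 0.06), Sncb (-0.34 ± 0.06; 64.4, 81.04, 75.8 and 71.6 FPKM in Control) and Stx1a (-0.32 ± 0.09; 62.4, 88.5, 86.7 and 77.8 FPKM in Control). Limma gave adjusted p values of 0.0261, 0.000369, 0.000770, 0.00306, 0.00462 and 0.0298 in that order. Among the 22 genes that passed, the libraries of Syngr3, Syt7, Stx1a and Slc17a6 overlapped between the groups. Control 1 was the lowest Control library for Slc32a1, Syp, Sncb and Stx1a, and for Stx1a it lay within the range of the libraries with TGF-β1. Without it the log2 differences were -0.41, -0.43, -0.40 and -0.43.

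The rises were led by Sv2c, an SV2 form of restricted expression, at 8.27, 8.75, 8.66 and 8.89 FPKM with TGF-β1, a log2 difference of 0.47 ± 0.06 from Control (limma, adjusted p = 0.000556). Rab3c, a Rab GTPase of vesicles, stood at 26.9, 22.4, 23.004 and 24.04 FPKM in Control, 27.1, 25.7, 26.5 and 25.7 FPKM after the scratch alone and 31.1, 32.3, 27.5 and 29.5 FPKM with TGF-β1, a log2 difference of 0.32 ± 0.06 from Control (limma, adjusted p = 0.00540). The libraries with TGF-β1 lay above all others for both genes. VGLUT2 (Slc17a6), the glutamate transporter more typical of subcortical neurons, rose by 0.31 ± 0.10 and Syt11 by 0.15 ± 0.04 on the log2 scale. Slc17a6 stood at 7.17, 5.55, 5.40 and 5.56 FPKM in Control, 6.50, 7.08, 6.47 and 7.29 FPKM after the scratch alone and 6.72, 8.33, 7.43 and 6.88 FPKM with TGF-β1. Control 1, at 7.17 FPKM, lay within the range of both scratched groups for Slc17a6.

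Further falls were those of Cplx1 (-0.26 ± 0.03), Cplx2 (-0.27 ± 0.04), Rph3a (-0.27 ± 0.03), Syngr3 (-0.23 ± 0.05), Syngr1 (-0.23 ± 0.04), Syt1 (-0.18 ± 0.04), Sv2a (-0.18 ± 0.04), Slc17a7 (-0.17 ± 0.05), Syt5 (-0.16 ± 0.04), Syt7 (-0.14 ± 0.04), Amph (-0.12 ± 0.03) and the scaffold bassoon (Bsn, -0.11 ± 0.03). Syp, Syngr1, Sv2c, Cplx1, Cplx2, Rab3c, Rims3, Rph3a and Sncb passed under each of the 26 alternatives. Single libraries ended several of the other calls. Over the 12 omissions the log2 difference of Syt2 was -0.60 to -0.43, lost without Control 2, 3 or 4 or Trauma+TGF-β1 1 or 4, and that of Stx1a was -0.43 to -0.26, lost without Control 2, 3 or 4 or Trauma+TGF-β1 1, 2 or 4. Syt5 (-0.19 to -0.14) was lost without Control 2 or 3 or Trauma+TGF-β1 1 or 2, Slc17a7 (-0.21 to -0.13) without Control 2 or 3 or Trauma+TGF-β1 2, 3 or 4, Amph (-0.13 to -0.11) without Control 4 or Trauma+TGF-β1 4, and Syt11 (0.13 to 0.17) without Control 3 or 4 or Trauma+TGF-β1 2. Bsn (-0.13 to -0.10) was lost without Control 2, 3 or 4, Trauma 3 or Trauma+TGF-β1 2 or 4, Syt7 (-0.17 to -0.11) without any library other than Control 1 and Trauma+TGF-β1 3, and Slc17a6 (0.25 to 0.40) without any library other than Control 1 and Trauma+TGF-β1 1. Bsn also turned sign, to 0.03, after the correction for GC content.

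**Figure D5:**
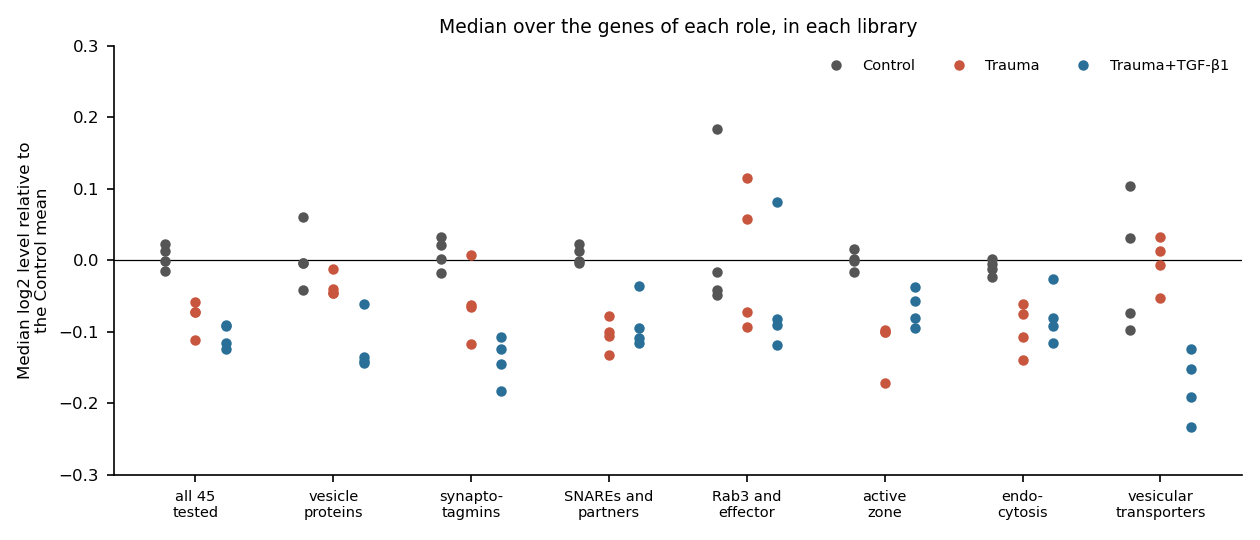
Median log2 level of the genes of each role in each library, relative to the Control mean of each gene; points are libraries, and the first column is the median over all 45 tested genes. For all 45 genes the Control libraries lie from -0.02 to 0.02, the Trauma libraries from -0.11 to -0.06 and the Trauma+TGF-β1 libraries from -0.12 to -0.09.

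The balance between close relatives was compared in 10 pairs and all 3 comparisons with a two-sided exact permutation test on the log2 ratio of their FPKM, with 0.1 FPKM added to each. With 4 libraries against 4 the smallest p is 0.0286, which 6 of the 30 tests reached, and after adjustment over the 30 none passed (adjusted p = 0.143 for those 6). A pass would have needed most of the 30 tests at the smallest p, so this test cannot decide on single pairs. Sv2a exceeded Sv2b by 5.19 ± 0.347 times in Control, 6.01 ± 0.338 after the scratch alone and 4.88 ± 0.108 with TGF-β1 (SD, n = 4), with log2 differences of 0.21 and -0.30 for the single steps. Syt1 relative to Syt4, a synaptotagmin induced by activity, went from 1.10 ± 0.0556 in Control to 0.932 ± 0.0116 in Trauma and 0.917 ± 0.0538 in Trauma+TGF-β1, with Control apart from both. Syt4 itself stood at 90.4, 81.5, 74.9 and 82.1 FPKM in Control, 84.3, 79.5, 81.4 and 75.6 FPKM after the scratch alone and 90.9, 90.9, 82.5 and 83.3 FPKM with TGF-β1, and its groups overlapped. Unc13a relative to Unc13b stood at 30.4 ± 2.58, 27.1 ± 1.96 and 23.04 ± 2.06, and was apart between Control and Trauma+TGF-β1. Unc13b, a low member, stood at 1.39, 1.25, 1.64 and 1.46 FPKM, 1.44, 1.37, 1.59 and 1.68 FPKM and 1.54, 1.54, 1.95 and 1.69 FPKM in the same order of groups.

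Vamp2 relative to Vamp1 stood at 92.2 ± 7.33 in Trauma and 110.1 ± 6.75 in Trauma+TGF-β1, which did not overlap either. Vamp1 stood at 1.78, 1.99, 2.24 and 2.29 FPKM in Control, 1.94, 2.10, 1.97 and 2.39 FPKM after the scratch alone and 1.62, 1.87, 1.91 and 1.79 FPKM with TGF-β1. The mean ratio of Cplx2 to Cplx1 lay between 0.871 and 0.891 in the 3 groups, and that of Syn1 to Syn2 lay between 3.93 and 4.12. Slc17a7 relative to Slc17a6 stood at 11.3 ± 1.98, 9.65 ± 0.749 and 8.01 ± 0.840, with overlap between all 3 groups. The permutation test gave no call for any of these pairs, so they are described by their values.

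Of the 45 tested genes 17 passed in no comparison: Syn1, Syn2, Syn3, Sypl, Syt3, Syt4, Snap25, Vamp1, Vamp2, Napa, Rab3a, Rab3b, Unc13a, Unc13b, Erc1, Dnm1 and Synj1. The smallest adjusted p among them was 0.0523 for synapsin 2 (Syn2, log2 difference -0.12 ± 0.04 in Trauma+TGF-β1 against Control, limma), followed by 0.0559 for Snap25, the SNARE of the plasma membrane (0.11 ± 0.04 in Trauma+TGF-β1 against Trauma), and 0.0607 for synaptojanin 1 (Synj1, 0.13 ± 0.04 in Trauma+TGF-β1 against Control). A p that misses the threshold does not show that these genes stayed the same. Apart from Rab3a, their log2 differences lay between -0.15 and 0.15 in Trauma against Control, between -0.21 and 0.18 in Trauma+TGF-β1 against Trauma and between -0.19 and 0.28 in Trauma+TGF-β1 against Control.

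Rims1 and Rab3a were the least abundant members. Rims1 had 0.00883, 0, 0.00864 and 0.679 FPKM in the Control libraries, and no other library exceeded 0.04 FPKM. Rab3a, the main Rab of synaptic vesicles, stood at 1.90, 1.06, 1.80 and 1.46 FPKM in Control, 1.01, 1.80, 1.88 and 1.16 FPKM after the scratch alone and 1.18, 0.691, 0.555 and 1.37 FPKM with TGF-β1, and its log2 differences of -0.09 ± 0.29 and -0.61 ± 0.29 for the single steps carried the largest SE of all members. How reads on these genes were assigned was not tested. For 9 members another gene with a mean of at least 1 FPKM overlaps their span, such as Timp1 within Syn1, Timp4 within Syn2 and Ciz1 at Dnm1, and reads of such pairs cannot be told apart if strand was not used.

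A wider list of 94 presynaptic genes that are not members, such as further synaptotagmins, liprins and clathrin adaptors, was read beside them; 93 were in the table and 86 were tested. In Trauma against Control 4 passed, 2 higher and 2 lower (4.65% of the list, against 6.00% of all tested genes), and 11 passed after the correction for GC content. Under quantile normalization and under total-read scaling 3 passed, 2 higher and 1 lower. The syntaxin binder amisyn (Stxbp6) fell (log2 difference -0.40 ± 0.08), while Syt12 rose by 0.65 ± 0.12 and the synaptojanin gene Synj2 by 0.46 ± 0.10 (limma, adjusted p = 0.0126, 0.00641 and 0.0210). Syt12 stood at 1.04, 1.10, 0.987 and 1.01 FPKM in Control, 1.76, 1.88, 1.44 and 1.68 FPKM after the scratch alone and 1.11, 1.13, 0.982 and 1.03 FPKM with TGF-β1, so that Trauma lay above both other groups.

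In Trauma+TGF-β1 against Trauma 13 of the list passed, 5 higher and 8 lower (15.1%, against 12.1% of all tested genes). Control libraries enter this comparison through the shared estimate of the spread. The count was 22 without Control 1, 8 without Trauma 2, 7 without Trauma 4, 4 without Trauma+TGF-β1 2 and 6 without Trauma+TGF-β1 4. Under quantile normalization 18 passed, 14 higher and 4 lower. The lowest were Syt12 (-0.62 ± 0.12), the short RIM gene Rims4 (-0.36 ± 0.06) and the SV2-related vesicle protein gene Svop (-0.30 ± 0.06), and the highest were tomosyn-2 (Stxbp5l, 0.44 ± 0.09), dynamin 3 (Dnm3, 0.30 ± 0.08) and the clathrin adaptor Picalm (0.24 ± 0.05). In Trauma+TGF-β1 against Control 23 passed, 9 higher and 14 lower (26.7%, against 16.6%). The count was 12 without Control 2 or Control 3, 15 without Trauma+TGF-β1 1 or 4 and 10 without Trauma+TGF-β1 2. Under quantile normalization 18 passed, 13 higher and 5 lower. The lowest were Lin7b (-0.49 ± 0.14), the calcium sensor gene Doc2a (-0.41 ± 0.08) and endophilin A3 (Sh3gl3, -0.29 ± 0.09), and the highest were Rab27b (0.53 ± 0.14), Synj2 (0.43 ± 0.10) and Stxbp5l (0.39 ± 0.09). Each of these passed the limma test. The median log2 difference of the list was -0.06, 0.03 and -0.04 in the 3 comparisons, beside -0.06, 0.03 and -0.11 for the members.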

How the data were processed

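Poly(A) RNA of 12 libraries was sequenced. According to the methods, the authors aligned reads with HISAT2 2.0.5, assembled them with StringTie, counted them per gene with featureCounts and deposited FPKM; the processing notes name mm10 and CASAVA. The strand setting and the annotation release are not given in the sources used here. The methods speak of fewer samples than the 12 libraries in the table. Multiplied by the deposited gene length and the library's scale, 100% of the FPKM values gave whole reads (tolerance 0.05 of a read), and these summed to 15052486 to 17381671 in a library. The library sizes behind the deposited FPKM values were those of median-of-ratios scaling, so a further scaling of that kind left them as they were, and scaling to total reads was added after seeing the data.

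From the FPKM, log2(FPKM + 0.1) was fitted with limma 3.58.1 (R 4.3.3; moderated by a trend on mean level) over all 12 libraries and 15016 genes with a mean of at least 0.5 FPKM, with Benjamini-Hochberg adjustment and a threshold of 0.05. Differences are on this log2 scale, which understates changes of low genes. A count model was not the main test, since the files hold FPKM; voom on the recovered reads was an alternative. Paralog ratios were compared by exact permutation tests (scipy 1.17.1). The main limma fit was tested on simulated reads, for Trauma against Control only. The alternatives and the permutation test were not tested in this way. Alternatives were another pseudocount or filter, quantile normalization, fits of 2 groups alone, loess corrections (span 0.3) for gene length or GC content, the replicate number as a block, and each library left out. The FPKM as deposited were a further alternative, which repeats the main fit. GC content was that of the longest GENCODE transcript of each gene, while gene length was the deposited value.

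The members and the lists of related genes and markers were chosen with earlier results of these data known. Values per library were given for up to 8 members with the largest called difference in each comparison, for the most abundant member of each role, and for paralogs where described; of the wider list, up to 3 higher and 3 lower were named, apart from 1 that is not reported here. Groups follow the sample titles.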

Additional observations from a re-analysis of the deposited data

Results flagged for a closer look

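In 138 groups of 4 libraries, 1 per member and group, the highest or lowest library was compared with the others by Dixon's criterion. 6 groups had a library that far apart, where chance gives about 1 in 20, or 6.9. Syt3 stood at 16.5 FPKM in Trauma 4, against 17.7 FPKM in the other Trauma libraries, and Erc1 at 12.1 FPKM in Trauma 4, against 13.3 to 13.5 FPKM. Snap25 stood at 47.0 FPKM in Trauma 1, against 43.5 to 44.0 FPKM. Syt11 stood at 138 FPKM in Trauma+TGF-β1 2, against 128 to 129.7 FPKM. Slc17a6 stood at 7.17 FPKM in Control 1, against 5.40 to 5.56 FPKM. Rims1 stood at 0.679 FPKM in Control 4, against 0 to 0.00883 FPKM in the other Control libraries.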

How the results depend on the processing

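For members called in a comparison, 913 alternative values kept their direction and their side of the threshold, 201 no longer passed, and 4 changed sign: Slc32a1 in Trauma+TGF-β1 against Trauma (0.011) and Bsn in Trauma+TGF-β1 against Control (0.034), each after GC correction without and with the replicate block. Of the 913, 43 came from the FPKM as deposited, which repeat the main fit. The counts below cover all 45 members, so they hold newly called members too. Counts over all genes moved as well, as given above for several of these settings. The count of 11 in Trauma against Control became 7 with no filter, 7 under quantile normalization, 5 with the 2 groups alone and 6 with scaling to total reads, and 6 to 10 with 1 library left out. The count of 10 in Trauma+TGF-β1 against Trauma became 16 under quantile normalization (12 higher and 4 lower), 5 with gene length correction and block, 5 with GC correction and 3 with GC correction and block, and lay between 7 and 15 with 1 library left out. The count of 22 in Trauma+TGF-β1 against Control became 14 with the 2 groups alone, and 15 to 26 with 1 library left out. The wider list went from 4 to 7 (length), 11 (GC), 14 (GC and block) and 8 (voom), with 3 to 6 by omission, in the first comparison. In the second it went from 13 to 7 (no filter), 7 (length and block), 4 (GC), 5 (GC and block) and 24 (voom), with 4 to 22 by omission, and in the third from 23 to 12 with the 2 groups alone, with 10 to 29 by omission. No paralog ratio passed (0 of 30), nor without the pseudocount (0 of 27, with Rims1/Rims2 left out). Both times a pass needed most tests at the smallest possible p, so these counts say little about the pairs. The causes were not tested.

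Replicate numbers were shared between groups. The deviations of same-numbered libraries correlated at -0.00877 to 0.0762 over 12 pairs, nearly all positive. Those of differently numbered libraries correlated at -0.0911 to 0.0733, of both signs. The numbers were not taken to pair libraries in the main fit, and whether they do was not tested. With the replicate block 8, 9 and 19 members and 4, 11 and 23 genes of the wider list passed. Rab3a, with 20 to 74 reads in a library, had few reads behind its values.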
